A study of Homo sapiens with 12 samples.

Results

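The genes described here are the TNF ligands and TNF receptors that carry superfamily symbols (TNFSF for ligands, TNFRSF for receptors) in a breast cancer line treated with paclitaxel, with and without a CRISPR knockout of GLI2. Members were taken by symbol alone, apart from a pair of family genes set aside in the selection. The symbol rule uses no measured value, but the family was chosen with earlier results of these data known. The deposited table of counts held 25 such genes among 25049, of which 7 were ligands and 18 receptors. A filter on low counts kept 22 of them (7 ligands and 15 receptors) among the 21974 genes tested. TNFRSF18, TNFRSF8 and TNFRSF13B fell under it. Family genes that are absent from the table were not analysed here.

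Polyadenylated RNA came from 12 samples of MDA-MB-231b, a bone-tropic derivative of the human triple-negative breast cancer line MDA-MB-231 selected by passage in the bones of nude mice. There were 3 samples each of GLI2 KO cells in 50 nM paclitaxel, GLI2 KO cells in DMSO, WT cells in 50 nM paclitaxel and WT cells in DMSO, all after 2 days. The series' design text describes lentiviral Cas9 knockout with a guide to GLI2 or a non-targeted guide, so the cells labelled WT went through the same kind of transduction, and no source used here says whether a genotype is 1 clone or a pool. Paclitaxel is a taxane that stabilises microtubules, and GLI2 is a transcription factor of the Hedgehog pathway.

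TNF superfamily ligands are mostly membrane-bound trimers that act on receptors of neighbouring cells. Receptors with a cytoplasmic death domain can assemble caspase-8 complexes and trigger apoptosis, while others recruit TRAF adaptors and switch on NF-kB. Decoy receptors bind a ligand without passing on a full signal. Several ligands of the family are best known as co-stimulators of T cells and B cells, and several receptors are targets of cancer drugs in development.

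Library totals lay between 83230948 and 109018776 counts, so that 3 counts equalled 0.0275 to 0.0360 CPM. CPM here are counts scaled by library size and TMM factor. Within groups, pairs of replicates gave a chi-square per degree of freedom of 2.74 to 16.2, above the value near 1 that counting error alone would give, and it was highest for GLI2 KO DMSO replicate 3 (12.4 and 16.2). GLI2 RNA averaged 4.16 ± 0.211 CPM in GLI2 KO cells in paclitaxel, 9.20 ± 0.925 CPM in GLI2 KO cells in DMSO, 5.68 ± 0.722 CPM in WT cells in paclitaxel and 10.8 ± 0.536 CPM in WT cells in DMSO (SD, n = 3 each). GLI2 RNA was therefore lower but present in the GLI2 KO cells, with log2 fold changes against WT of -0.44 ± 0.09 in paclitaxel and -0.23 ± 0.08 in DMSO (edgeR adjusted p = 0.000243 and 0.0253). Counts over a whole gene do not show whether its protein is lost. All 7 genes listed as typical of MDA-MB-231, among them VIM, CD44 and AXL, were present, at 4005 to 5631 CPM in sum. PGR, listed as low or absent in a triple-negative line, averaged 0.836 ± 0.119 and 2.48 ± 0.432 CPM in GLI2 KO cells in paclitaxel and in DMSO. In WT cells its group mean was at most 0.00706 CPM. ERBB2, on the same list, averaged 49.6 CPM with paclitaxel and 56.2 CPM with DMSO in GLI2 KO cells. In WT cells ERBB2 averaged 45.2 CPM with paclitaxel and 57.9 CPM with DMSO. No level was set for what counts as low, and ESR1 was not analysed here.

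Per kilobase of exon, receptor RNA far outweighed ligand RNA. In WT cells in DMSO the order was led by TNFRSF12A at 69.4 CPM per kb, TNFRSF21 at 53.3, TNFRSF10B at 26.7, TNFRSF10D at 21.4, TNFRSF1A at 18.0 and TNFRSF10A at 13.5. The next members were the ligands TNFSF12 at 2.42 and TNFSF9 at 2.19 CPM per kb and the receptor TNFRSF11A at 1.51 CPM per kb, and the highest of the other 16 was TNFRSF17 at 0.289 CPM per kb. TNFRSF12A and TNFRSF21 held the highest and second places in all 4 groups. The ligand TNFSF15 changed its place in this order, since it ranked 9 of 25 in GLI2 KO cells in paclitaxel (1.89 CPM per kb), 15 in GLI2 KO cells in DMSO, 11 in WT cells in paclitaxel and 19 in WT cells in DMSO (0.0326 CPM per kb). Summed over the 7 ligands, RNA came to 26.7 ± 1.33 CPM in GLI2 KO cells in paclitaxel, 12.6 ± 0.562 in GLI2 KO cells in DMSO, 13.6 ± 0.604 in WT cells in paclitaxel and 9.42 ± 0.389 in WT cells in DMSO. The 18 receptors summed to 742 ± 6.27, 723 ± 14.6, 682 ± 16.1 and 663 ± 21.2 CPM in those groups, in the same order (SD, n = 3 each).

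**Figure D1:**
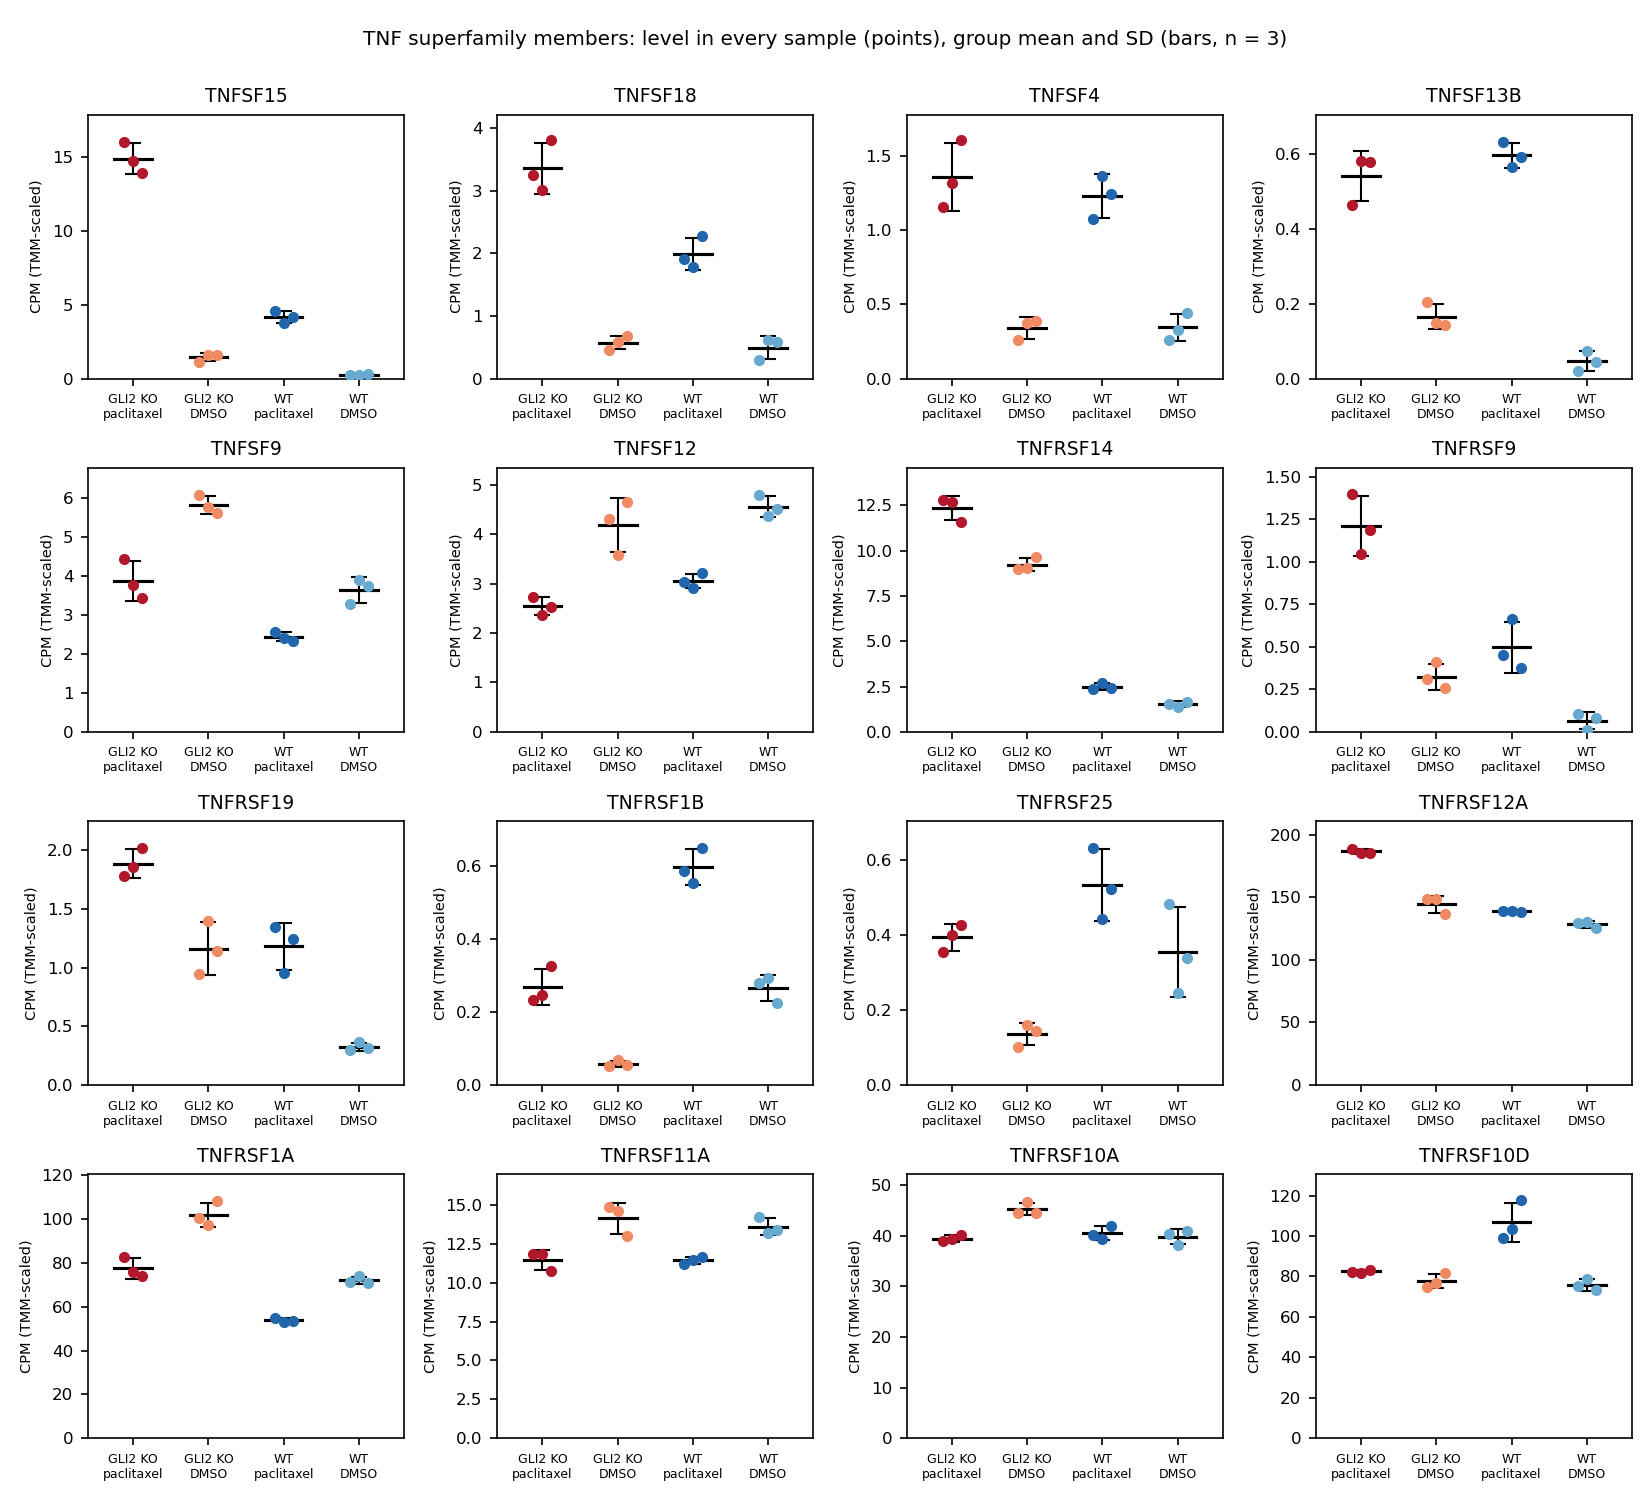
Level of 16 members in every sample (points), with the group mean and SD as bars (n = 3); each vertical axis starts at 0 and gives TMM-scaled CPM, and the 4 groups run along each horizontal axis. TNFSF15 lay between 13.9 and 16.1 CPM in GLI2 KO cells in paclitaxel and below 0.31 CPM in WT cells in DMSO.

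The first question was how 2 days of paclitaxel changed the family in each genotype. In GLI2 KO cells 10 of the 22 tested members rose and 5 fell, against 33.0% and 32.2% of all genes tested. In WT cells 11 rose and 5 fell, against 34.6% and 32.1% of all genes. Calls rest on edgeR's quasi-likelihood test with Benjamini-Hochberg adjustment over all genes and an adjusted p below 0.05, which more than 6 in 10 genes passed in both genotypes (65.2% and 66.7%), so a call on its own sets no member apart. Rises of at least 2-fold were less common, at 7 members in each genotype against 16.0% and 18.0% of all genes, and no member fell by as much (0.819% and 0.587% of all genes did). Library totals in place of TMM factors moved all paclitaxel log2 fold changes up by 0.18 in GLI2 KO cells and 0.16 in WT cells, with 47.3% of genes higher and 17.4% lower in GLI2 KO cells and 47.1% and 19.5% in WT cells. Upper-quartile factors moved them up by 0.12 and 0.13, with 42.4% higher and 21.8% lower in GLI2 KO cells and 45.1% and 21.5% in WT cells.

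In each genotype 4 of 7 ligands and 3 of 15 tested receptors rose at least 2-fold, against 16.0% and 18.0% of all genes. The median log2 fold change of the 7 ligands was 1.72 in GLI2 KO cells and 1.85 in WT cells, beside 0.05 and 0.03 for the 15 tested receptors and 0.02 and 0.03 for all genes. In each genotype 4 ligands rose (TNFSF15, TNFSF18, TNFSF4 and TNFSF13B), 2 fell (TNFSF9 and TNFSF12) and TNFSF13 did not pass. In DMSO the 4 that rose averaged 0.166 to 1.44 CPM in GLI2 KO cells and 0.0459 to 0.496 CPM in WT cells. TNFSF9 and TNFSF12 averaged 5.83 and 4.18 CPM in GLI2 KO cells in DMSO and 3.65 and 4.56 CPM in WT cells in DMSO. Paclitaxel libraries held a count for 24923 to 24985 genes, and DMSO libraries for 23712 to 24125. How far a low starting level goes with these rises was not tested.

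TNFSF15 (TL1A), a ligand of the death-domain receptor TNFRSF25, lies on chromosome 9 (GRCh38 114784635 to 114806126, minus strand). It stood at 16.1, 14.7 and 13.9 CPM in GLI2 KO cells in paclitaxel, against 1.13, 1.60 and 1.60 CPM in GLI2 KO cells in DMSO. WT cells had 4.56, 3.74 and 4.19 CPM in paclitaxel, against 0.222, 0.244 and 0.305 CPM in DMSO. All 3 paclitaxel samples lay above all 3 DMSO samples in both genotypes, and the groups did not overlap. The rise was 10.3-fold in GLI2 KO cells (log2 3.36 ± 0.10, edgeR adjusted p = 2.27e-18) and 16.2-fold in WT cells (log2 4.02 ± 0.16, adjusted p = 1.79e-16). Among 50 tested neighbours, 25 on each side, the rise of TNFSF15 exceeded that of 49 in GLI2 KO cells and of all 50 in WT cells.

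TNFSF18 (GITR ligand) and TNFSF4 (OX40 ligand), both co-stimulators of T cells, lie close together on chromosome 1 (TNFSF18 at 173039960 to 173050963 and TNFSF4 at 173183734 to 173207313, both on the minus strand). TNFSF18 stood at 3.26, 3.01 and 3.81 CPM in GLI2 KO cells in paclitaxel, against 0.461, 0.578 and 0.678 CPM in GLI2 KO cells in DMSO. WT cells had 1.91, 1.79 and 2.27 CPM of it in paclitaxel, against 0.290, 0.611 and 0.587 CPM in DMSO. It rose 5.83-fold in GLI2 KO cells and 4.10-fold in WT cells (log2 2.54 ± 0.18 and 2.03 ± 0.20, edgeR adjusted p = 5.38e-11 and 6.43e-09), with no overlap between the paclitaxel and DMSO samples of a genotype. For TNFSF4, GLI2 KO cells had 1.15, 1.32 and 1.60 CPM in paclitaxel, against 0.256, 0.374 and 0.389 CPM in DMSO. WT cells had 1.07, 1.36 and 1.24 CPM of it in paclitaxel, against 0.261, 0.330 and 0.440 CPM in DMSO. TNFSF4 thus stood at nearly one level per treatment whatever the genotype, and it rose 3.97-fold in GLI2 KO cells and 3.59-fold in WT cells (log2 1.99 ± 0.20 and 1.85 ± 0.20, adjusted p = 5.36e-09 and 2.04e-08).

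TNFSF13B (BAFF), a survival factor of B cells, was scarce in all samples. GLI2 KO cells had 0.465, 0.582 and 0.580 CPM of it in paclitaxel, against 0.205, 0.147 and 0.144 CPM in DMSO. WT cells had 0.633, 0.566 and 0.592 CPM in paclitaxel, against 0.0193, 0.0733 and 0.0452 CPM in DMSO. The genotypes overlapped in paclitaxel and did not overlap in DMSO, where the WT samples held 2, 6 and 4 counts. The rise was 3.29-fold in GLI2 KO cells and 13.2-fold in WT cells (log2 1.72 ± 0.27 and 3.72 ± 0.34, edgeR adjusted p = 4.46e-06 and 6.38e-10).

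TNFSF9 (4-1BB ligand) and TNFSF12 (TWEAK, the ligand of TNFRSF12A) moved down. TNFSF9 stood at 4.43, 3.76 and 3.43 CPM in GLI2 KO cells in paclitaxel, against 6.08, 5.78 and 5.62 CPM in GLI2 KO cells in DMSO. WT cells had 2.56, 2.42 and 2.34 CPM in paclitaxel, against 3.28, 3.91 and 3.75 CPM in DMSO. No paclitaxel sample overlapped a DMSO sample of its genotype, and the log2 fold changes were -0.59 ± 0.09 in GLI2 KO cells and -0.58 ± 0.10 in WT cells (edgeR adjusted p = 3.90e-06 and 1.98e-05). TNFSF12 stood at 2.74, 2.36 and 2.53 CPM in GLI2 KO cells in paclitaxel, against 4.31, 3.58 and 4.65 CPM in GLI2 KO cells in DMSO. In WT cells TNFSF12 had 3.04, 2.91 and 3.21 CPM in paclitaxel, against 4.79, 4.37 and 4.51 CPM in DMSO. Every paclitaxel sample was below every DMSO sample of its genotype, with log2 fold changes of -0.72 ± 0.10 and -0.58 ± 0.10 (adjusted p = 6.57e-07 and 9.34e-06). TNFSF12 shares 29.4% of its exon bases with the read-through gene TNFSF12-TNFSF13, so counts may have been split between them. TNFSF13 (APRIL), which shares 55.5% of its exon bases with that gene, held 4 to 15 counts per sample and did not pass in any comparison.

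The ligand changes stood beside small amounts of RNA from genes that mark other cell types. Summed over the 5 haematopoietic markers in the table (PTPRC, CD14, CSF1R, ITGAM and SPI1, of 10 listed), the level was 2.92 to 3.65 CPM in GLI2 KO cells in paclitaxel, 1.05 to 1.49 CPM in GLI2 KO cells in DMSO, 2.33 to 2.67 CPM in WT cells in paclitaxel and 0.768 to 0.880 CPM in WT cells in DMSO. The 5 endothelial markers summed to 2.92 to 3.23, 1.19 to 1.54, 4.19 to 4.53 and 2.37 to 3.01 CPM in those groups, in the same order, and the 4 stromal markers in the table (of 6 listed) to 28.3 to 31.5, 14.8 to 20.0, 17.0 to 18.3 and 11.4 to 13.1 CPM. All 5 haematopoietic markers rose in GLI2 KO cells and 4 of 5 in WT cells, against 33.0% and 34.6% of all genes tested. The 4 tested endothelial markers and the 3 tested stromal markers all rose in both genotypes as well. No marker in the table was at 0 counts in a whole group. The other listed markers were not analysed here. The samples are of a cultured line, and the part of these markers in the ligand changes was not tested. In bulk RNA, more cells that hold a transcript and more of it per cell cannot be told apart.

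**Figure D2:**
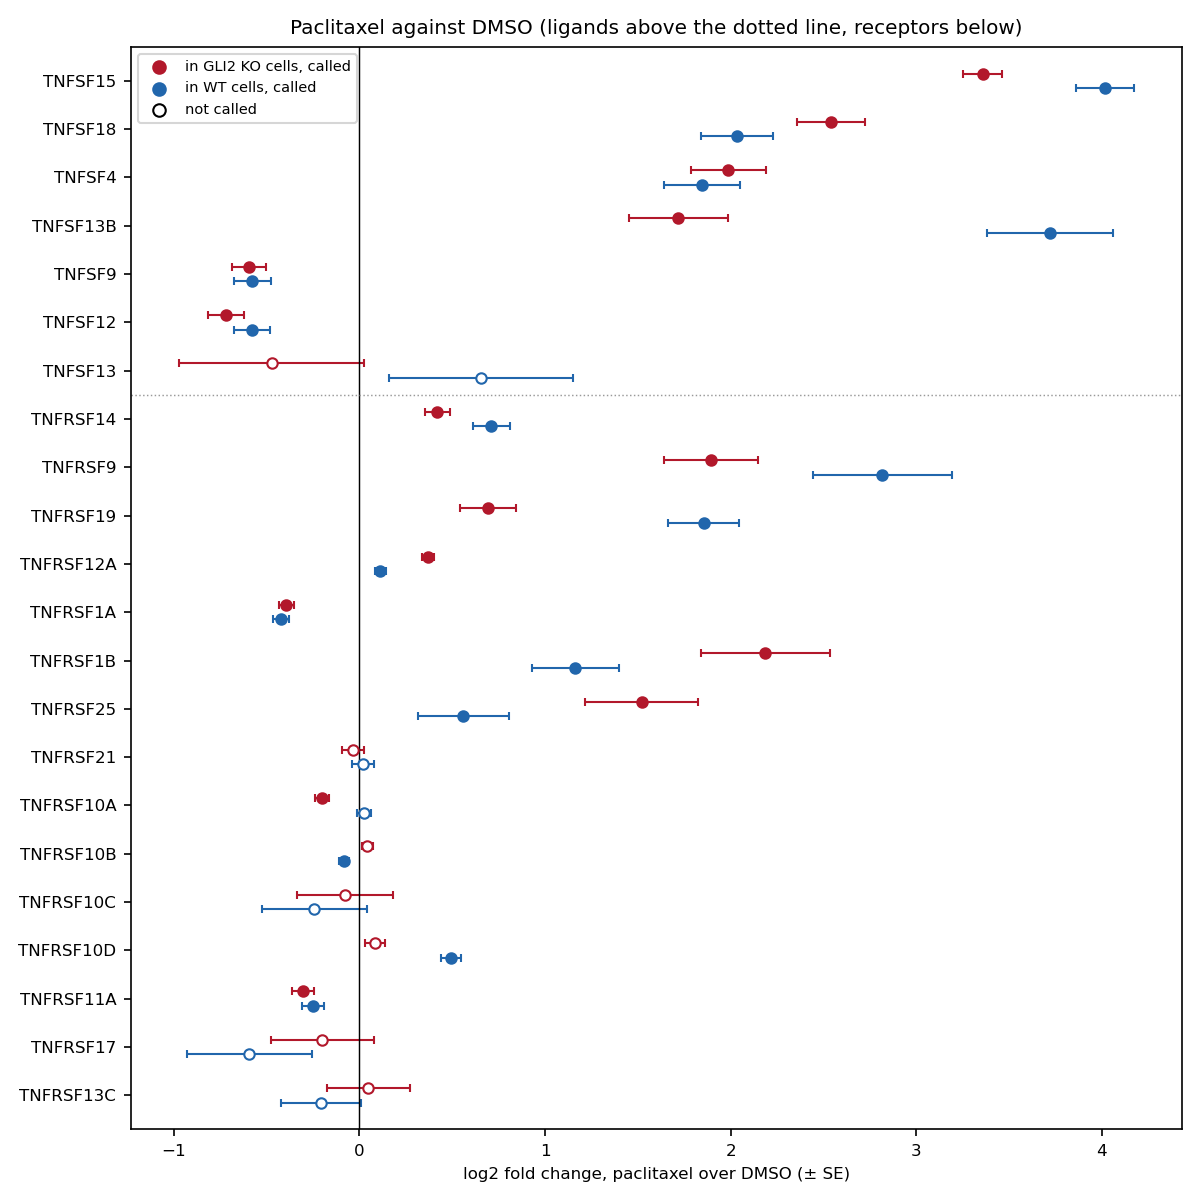
Log2 fold change of paclitaxel over DMSO (horizontal axis, points with ± SE) for the 22 tested members in GLI2 KO cells (red) and WT cells (blue), with ligands above the dotted line; filled points passed edgeR's test. TNFSF15, TNFSF18, TNFSF4 and TNFSF13B lie to the right in both genotypes, at 1.72 to 4.02, and most receptors lie near 0.

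Promoter sequence from RefSeq (GRCh38.p14, 250 bases before the annotated start) was available for 17 of the 25 members. Letters searched on both strands were TGANTCA for AP-1, GGG, any 2 bases and TTTCC for NF-kB (kB) and GACCACCCA for GLI factors. AP-1 letters stood in 2 of the 17 members and in 6.57% of 35116 promoters, kB letters in 1 member and 1.73% of promoters, and GLI letters in 0 members and 0.199% of promoters. The windows of 2 ligands that rose with paclitaxel are shown, with the AP-1 match of TNFSF15 in capitals. That match lies 120 to 114 bases before the start, and the letters of all 3 motifs are absent from the TNFSF18 window. The TNFSF15 window (chr9:114792531-114792780, minus strand) belongs to an internal start 13596 bases downstream of the first coding start in GENCODE. It lies 422 bases from the nearest GENCODE coding start, and the sequence before the first start of TNFSF15 was not searched. The window of TNFSF18 is chr1:173050942-173051191, minus strand. No motif here shares letters with another, and a match describes letters, not binding.
TNFSF15: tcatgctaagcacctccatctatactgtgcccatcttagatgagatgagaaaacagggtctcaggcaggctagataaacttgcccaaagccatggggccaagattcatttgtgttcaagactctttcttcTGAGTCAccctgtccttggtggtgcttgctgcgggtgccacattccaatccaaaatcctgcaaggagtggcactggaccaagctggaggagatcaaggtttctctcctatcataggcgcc
TNFSF18: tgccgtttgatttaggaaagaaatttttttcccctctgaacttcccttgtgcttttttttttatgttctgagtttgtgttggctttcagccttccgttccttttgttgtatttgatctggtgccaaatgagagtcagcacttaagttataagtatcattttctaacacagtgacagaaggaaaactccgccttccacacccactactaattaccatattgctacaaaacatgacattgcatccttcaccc

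Among the tested receptors without a death domain, TNFRSF9 (4-1BB), a receptor of TNFSF9, made the largest rise in WT cells, and TNFRSF1B made the largest in GLI2 KO cells. TNFRSF9 lies on chromosome 1 (7915894 to 7943165, minus strand). GLI2 KO cells had 1.40, 1.05 and 1.19 CPM of it in paclitaxel, against 0.308, 0.408 and 0.256 CPM in DMSO. WT cells had 0.452, 0.665 and 0.375 CPM in paclitaxel, against 0.106, 0.0122 and 0.0791 CPM in DMSO, the last being 11, 1 and 7 counts. It rose 3.72-fold and 7.05-fold (log2 1.89 ± 0.25 in GLI2 KO cells and 2.82 ± 0.37 in WT cells, edgeR adjusted p = 4.96e-07 and 4.65e-07) while its ligand fell, and within a genotype no paclitaxel sample overlapped a DMSO sample. Its promoter window held both a kB match (74 to 65 bases before the RefSeq start) and an AP-1 match (44 to 38 bases before it). The sites are shown with 8 flanking bases on each side, the match in capitals, at chr1:7940896-7940921 and chr1:7940869-7940891 on the minus strand. Both lie upstream of the shorter GENCODE coding transcript and inside a noncoding exon part of a longer one.
TNFRSF9 kB: gctgtggtGGGAATTTCCcatgagac
TNFRSF9 AP-1: cccctggcTGAGTCAccgcactc

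TNFRSF1B (TNFR2), the TNF receptor without a death domain, stood at 0.233, 0.248 and 0.326 CPM in GLI2 KO cells in paclitaxel, against 0.0513, 0.0680 and 0.0555 CPM in GLI2 KO cells in DMSO. WT cells held 0.587, 0.555 and 0.651 CPM in paclitaxel, against 0.280, 0.293 and 0.226 CPM in DMSO. It rose 4.55-fold in GLI2 KO cells and 2.24-fold in WT cells (log2 2.19 ± 0.35 and 1.16 ± 0.23, edgeR adjusted p = 5.76e-06 and 0.000106), without overlap within a genotype. TNFRSF1A (TNFR1), the widely expressed TNF receptor with a death domain, went the other way and was far more abundant, at 18.0 CPM per kb in WT cells in DMSO beside 0.0707 for TNFRSF1B. Its levels were 82.8, 75.7 and 73.8 CPM in GLI2 KO cells in paclitaxel, against 100.2, 97.0 and 108 CPM in GLI2 KO cells in DMSO. WT cells had 54.7, 53.1 and 53.3 CPM of TNFRSF1A in paclitaxel, against 71.3, 73.8 and 70.8 CPM in DMSO. It fell in both genotypes, without overlap within a genotype (log2 -0.39 ± 0.04 and -0.42 ± 0.04, adjusted p = 1.11e-08 and 5.26e-09), with log2 -0.22 and -0.26 under library totals.

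TNFRSF19 (TROY), a receptor known from hair follicle and nervous system development, stood at 1.78, 1.85 and 2.02 CPM in GLI2 KO cells in paclitaxel, against 0.949, 1.39 and 1.14 CPM in GLI2 KO cells in DMSO. The WT samples held 1.34, 0.954 and 1.24 CPM in paclitaxel, against 0.299, 0.366 and 0.316 CPM in DMSO. It rose 1.62-fold and 3.62-fold (log2 0.69 ± 0.15 in GLI2 KO cells and 1.86 ± 0.19 in WT cells, edgeR adjusted p = 0.000259 and 6.60e-09), and paclitaxel and DMSO samples did not overlap within a genotype. TNFRSF14 (HVEM), a receptor that also binds the inhibitory receptor BTLA of lymphocytes, had 12.8, 12.7 and 11.6 CPM in GLI2 KO cells in paclitaxel, against 9.0, 9.02 and 9.62 CPM in GLI2 KO cells in DMSO. WT cells had 2.37, 2.72 and 2.41 CPM of TNFRSF14 in paclitaxel, against 1.54, 1.36 and 1.67 CPM in DMSO. The paclitaxel rise was 1.34-fold in GLI2 KO cells and 1.64-fold in WT cells (log2 0.42 ± 0.07 and 0.71 ± 0.10, adjusted p = 8.57e-06 and 7.81e-07), smaller than the gap between genotypes. TNFRSF14 shares 13.4% of its exon bases with its antisense gene, and no source used here says whether counting used strand.

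TNFRSF12A (Fn14), the receptor of TNFSF12 and the most abundant member per kilobase, had 189, 186 and 185 CPM in GLI2 KO cells in paclitaxel, against 148, 149 and 137 CPM in GLI2 KO cells in DMSO. WT cells had 139, 139 and 138 CPM in paclitaxel, against 129.5, 130.3 and 125 CPM in DMSO. No paclitaxel sample overlapped a DMSO sample of its genotype. It rose by 29.1% in GLI2 KO cells and 8.21% in WT cells (log2 0.37 ± 0.03 and 0.11 ± 0.03, edgeR adjusted p = 2.08e-10 and 0.00275), the reverse of its ligand, and the WT value was log2 0.25 with upper-quartile factors, 0.27 with library totals and 0.18 with a minimum count of 50. TNFRSF11A (RANK), a receptor that drives osteoclast formation, stood at 11.8, 11.9 and 10.7 CPM in GLI2 KO cells in paclitaxel, against 14.8, 14.6 and 13.0 CPM in GLI2 KO cells in DMSO. WT cells had 11.2, 11.5 and 11.6 CPM of it in paclitaxel, against 14.2, 13.2 and 13.4 CPM in DMSO. The treatments did not overlap in either genotype. Its fall (log2 -0.30 ± 0.06 and -0.25 ± 0.06, adjusted p = 8.65e-05 and 0.000644) did not pass with library totals (adjusted p = 0.0609 in GLI2 KO cells and 0.153 in WT cells) or, in WT cells, with upper-quartile factors (adjusted p = 0.0783).

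TNFRSF25 (DR3), the death-domain receptor of TNFSF15, had 0.355, 0.399 and 0.426 CPM in GLI2 KO cells in paclitaxel, against 0.103, 0.159 and 0.144 CPM in GLI2 KO cells in DMSO. WT cells had 0.633, 0.444 and 0.523 CPM in paclitaxel, against 0.483, 0.244 and 0.339 CPM in DMSO. The GLI2 KO samples parted by treatment and the WT samples overlapped. It rose 2.87-fold in GLI2 KO cells (log2 1.52 ± 0.30, edgeR adjusted p = 0.000110). Its WT change of log2 0.56 ± 0.25 passed narrowly (adjusted p = 0.0477) and did not pass under 9 alternatives, with log2 0.36 (adjusted p = 0.227) without WT DMSO replicate 2 and log2 0.86 without WT DMSO replicate 1. TNFRSF25 shares 8.9% of its exon bases with ESPN. TNFRSF21 (DR6), a death-domain receptor and the second most abundant member per kilobase, averaged 185 ± 4.07 CPM in GLI2 KO cells in paclitaxel, 189 ± 11.4 in GLI2 KO cells in DMSO, 194 ± 7.42 in WT cells in paclitaxel and 192 ± 18.0 in WT cells in DMSO (SD, n = 3 each). It passed in none of the 5 comparisons, although its WT paclitaxel change did with library totals (log2 0.18, adjusted p = 0.0347). Its paclitaxel change had 95% intervals of -0.15 to 0.09 log2 in GLI2 KO cells and -0.10 to 0.14 log2 in WT cells.

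The TRAIL receptors, clustered on chromosome 8, comprise the death receptors TNFRSF10A (DR4) and TNFRSF10B (DR5) and the decoys TNFRSF10C (DcR1) and TNFRSF10D (DcR2). TNFRSF10D stood at 82.3, 81.9 and 83.3 CPM in GLI2 KO cells in paclitaxel, against 74.9, 76.8 and 81.7 CPM in GLI2 KO cells in DMSO. In WT cells it had 99.0, 103 and 118 CPM in paclitaxel, against 75.5, 78.9 and 73.1 CPM in DMSO. WT cells in paclitaxel stood above the other 3 groups, which spanned 73.1 to 83.3 CPM. The decoy rose 1.41-fold in WT cells (log2 0.49 ± 0.05, edgeR adjusted p = 5.42e-07). In GLI2 KO cells the change was log2 0.08 ± 0.05 (adjusted p = 0.173, 95% interval -0.02 to 0.19), and it passed under 5 alternatives, with library totals at log2 0.26. Paclitaxel and DMSO samples did not overlap within either genotype, narrowly so in GLI2 KO cells (81.9 against 81.7 CPM).

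TNFRSF10A stood at 38.9, 39.3 and 40.1 CPM in GLI2 KO cells in paclitaxel, against 44.6, 46.7 and 44.5 CPM in GLI2 KO cells in DMSO. That difference of log2 -0.20 ± 0.04 (edgeR adjusted p = 4.89e-05) did not pass with library totals (log2 -0.02, adjusted p = 0.619) or upper-quartile factors (log2 -0.08, adjusted p = 0.0662). In WT cells it had 40.2, 39.3 and 42.0 CPM in paclitaxel, against 40.4, 38.2 and 40.8 CPM in DMSO (log2 0.03 ± 0.04, adjusted p = 0.569). The WT difference passed with library totals (log2 0.18, adjusted p = 0.000178), upper-quartile factors (log2 0.16, adjusted p = 0.000522) and a minimum count of 50 (log2 0.09, adjusted p = 0.0277). The 3 GLI2 KO samples in DMSO were higher than the other 9. TNFRSF10B stood at 139, 143 and 145 CPM in GLI2 KO cells in paclitaxel, against 137, 136 and 141 CPM in GLI2 KO cells in DMSO. WT cells had 131, 131 and 129 CPM of it in paclitaxel, against 137, 137 and 139.8 CPM in DMSO. The WT samples parted by treatment and the GLI2 KO samples overlapped. In GLI2 KO cells the difference was log2 0.04 ± 0.03 (edgeR adjusted p = 0.178), and it passed with upper-quartile factors (0.17), library totals (0.22) and a minimum count of 50 (0.10). Its WT change of log2 -0.08 ± 0.03 (adjusted p = 0.0106) turned to log2 0.073 with library totals (adjusted p = 0.0345) and to 0.049 with upper-quartile factors (adjusted p = 0.129), so its direction depended on the scaling, and it did not pass with a minimum count of 50 (adjusted p = 0.620) or without WT DMSO replicate 3 (adjusted p = 0.0502). TNFRSF10C held 23 to 50 counts per sample, passed in no comparison, and is uncertain because it is a close copy of TNFRSF10D and 26% of its exon bases lie in AC107959.4 as well.

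Weighing the receptors against each other does not depend on library scaling. Decoys took 36.5% ± 0.299 of TRAIL receptor RNA, per kilobase, in GLI2 KO cells in paclitaxel, 34.5% ± 0.884 in GLI2 KO cells in DMSO, 43.7% ± 2.09 in WT cells in paclitaxel and 35.0% ± 1.26 in WT cells in DMSO (SD, n = 3 each). The share was 8.75 percentage points higher with paclitaxel in WT cells and 1.98 points higher in GLI2 KO cells, without overlap in either. Both exact permutation tests (two-sided) gave p = 0.1, the smallest value that 3 against 3 samples allow. GLI2 KO cells differed from WT cells by -7.20 points in paclitaxel (exact permutation p = 0.1) and by -0.42 points in DMSO (exact permutation p = 0.7), where the samples overlapped.

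**Figure D3:**
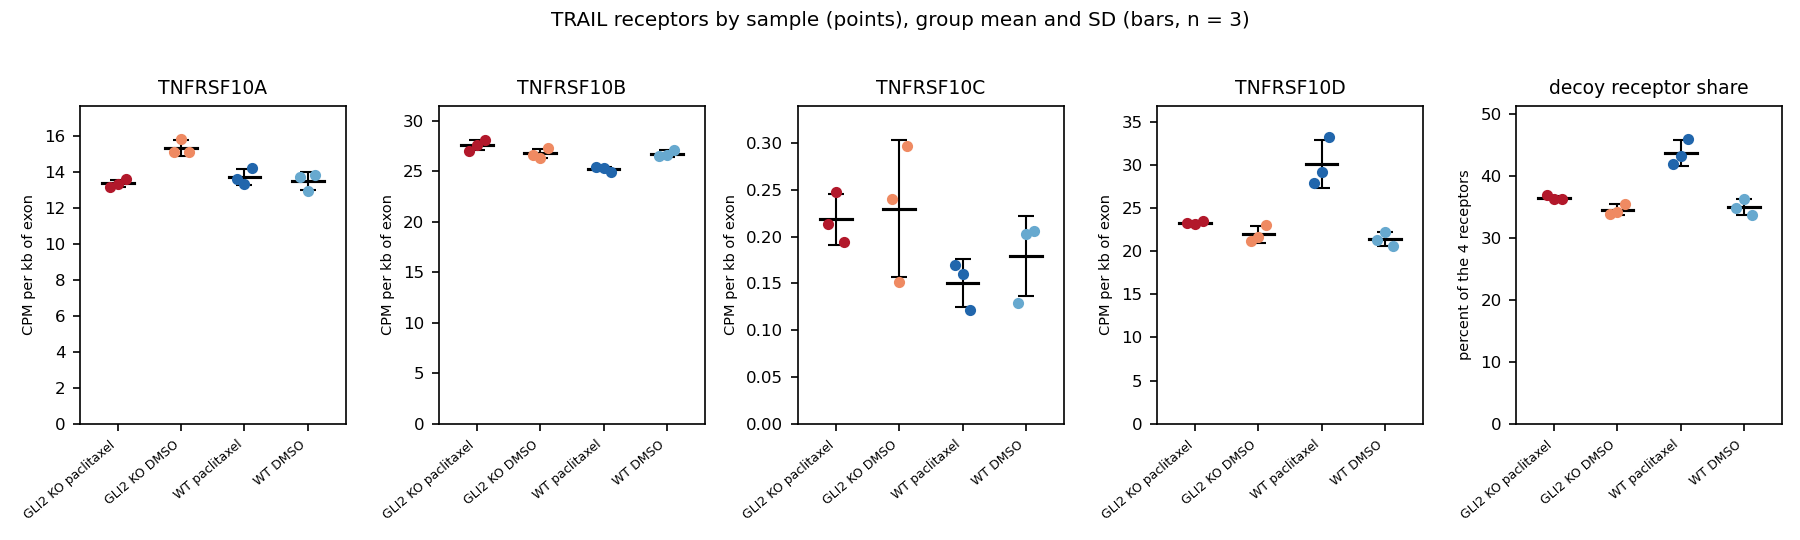
TRAIL receptor levels in every sample (points, CPM per kb of exon) and the decoy share in percent (right-hand panel), with group mean and SD as bars (n = 3) and all axes from 0. The WT paclitaxel samples had decoy shares of 41.9% to 46.0%, above the 33.8% to 36.9% of the other 9 samples.

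Of the remaining receptors, TNFRSF17 (BCMA) and TNFRSF13C (BAFF receptor), both known from B cells, reached at most 0.578 and 0.787 CPM in a sample and did not pass with paclitaxel, except TNFRSF17 in WT cells without WT paclitaxel replicate 2 (log2 -1.27, adjusted p = 0.00239). TNFRSF18 (GITR), the receptor of TNFSF18, held 1, 6 and 7 counts in GLI2 KO cells in paclitaxel and 1, 0 and 0 counts in DMSO, a ratio of 13.8 per library total (exact 95% interval 2.10 to 585). In WT cells it held 5, 4 and 2 counts in paclitaxel and 0 in all DMSO samples, hence at least 4.0-fold higher against a floor of 3 counts over the group. TNFRSF8 (CD30) held 0 to 9 counts per sample and TNFRSF13B (TACI) 0 to 7. In WT cells TNFRSF13B held 6 counts in paclitaxel and 2 in DMSO, a ratio of 3.27 (exact 95% interval 0.585 to 33.1). Intervals and floors cover counting error only.

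The second question was how GLI2 KO cells differed from WT cells under the same treatment. In paclitaxel 10 of 22 members were higher in GLI2 KO cells and 3 lower, against 23.4% and 22.2% of all genes tested (45.6% in either direction). In DMSO 9 were higher and 2 lower, against 22.0% and 19.6% of all genes (41.6% in either direction). Of these, 4 members in paclitaxel and 5 in DMSO were at least 2-fold higher (3.49% and 4.15% of all genes) and 1 and 2 were at least 2-fold lower (2.88% and 2.58%). The members' median log2 fold change was 0.14 in paclitaxel and 0.22 in DMSO, beside -0.01 and 0.01 for all genes. These comparisons use the same samples as the paclitaxel comparisons.

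TNFRSF14 and TNFSF15 showed the clearest differences. From the levels given above, TNFRSF14 was 4.93-fold higher in GLI2 KO cells in paclitaxel and 6.04-fold higher in DMSO (log2 2.30 ± 0.08 and 2.59 ± 0.09, edgeR adjusted p = 1.62e-17 and 7.11e-18), and each GLI2 KO sample held at least 9.0 CPM while no WT sample exceeded 2.72 CPM. TNFSF15 was 3.58-fold higher in paclitaxel and 5.65-fold higher in DMSO (log2 1.84 ± 0.09 and 2.50 ± 0.19, adjusted p = 1.33e-14 and 3.35e-11). TNFRSF9 was 2.44-fold and 4.62-fold higher (log2 1.29 ± 0.23 in paclitaxel and 2.21 ± 0.41 in DMSO, adjusted p = 6.49e-05 and 8.60e-05). TNFRSF19 was 1.60-fold and 3.58-fold higher (log2 0.68 ± 0.15 and 1.84 ± 0.19, adjusted p = 0.000495 and 1.90e-08). In each of these genes, no GLI2 KO sample overlapped a WT sample of the same treatment.

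Smaller differences of the same sign were found in TNFSF9 (log2 0.66 ± 0.10 in paclitaxel and 0.68 ± 0.09 in DMSO, edgeR adjusted p = 4.81e-06 and 1.26e-06), TNFRSF1A (0.53 ± 0.04 and 0.50 ± 0.04, adjusted p = 2.39e-10 and 4.24e-10) and TNFRSF12A (0.43 ± 0.03 and 0.17 ± 0.03, adjusted p = 3.07e-11 and 8.07e-05). TNFRSF1A, the TNF receptor with a death domain, was thus 44.1% higher in GLI2 KO cells in paclitaxel. TNFRSF1B, its counterpart without one, was lower in GLI2 KO cells, by log2 -1.14 ± 0.23 in paclitaxel and -2.16 ± 0.35 in DMSO (adjusted p = 0.000204 and 1.56e-05). TNFRSF25 was lower in DMSO (log2 -1.40 ± 0.31, adjusted p = 0.000655), and in paclitaxel its value was -0.43 ± 0.24 (adjusted p = 0.150).

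Some members differed in only one treatment, which is not in itself a difference between treatments. TNFSF13B was 3.65-fold higher in GLI2 KO cells in DMSO (log2 1.87 ± 0.43, edgeR adjusted p = 0.000829) and stood at log2 -0.13 ± 0.22 in paclitaxel (adjusted p = 0.654). TNFSF18 was higher in GLI2 KO cells in paclitaxel (log2 0.76 ± 0.15, adjusted p = 0.000250) and stood at 0.25 ± 0.24 in DMSO (adjusted p = 0.449). TNFSF12 was lower in paclitaxel (log2 -0.27 ± 0.10, adjusted p = 0.0340), a call lost without GLI2 KO paclitaxel replicate 2 or 3 or WT paclitaxel replicate 1 or 3 (log2 -0.27 to -0.22, largest adjusted p = 0.140). TNFRSF17 held 44, 40 and 49 counts in GLI2 KO cells in paclitaxel, against 11, 34 and 14 counts in WT cells in paclitaxel. In DMSO its difference was log2 0.70 ± 0.30 (edgeR adjusted p = 0.0600), which passed under 4 alternatives (log2 0.70 to 0.97). Its paclitaxel difference of log2 1.10 ± 0.32 (adjusted p = 0.00602) became 0.85 without WT paclitaxel replicate 3 (adjusted p = 0.0502) and 1.77 without WT paclitaxel replicate 2. TNFRSF13B, under the filter, held 14 counts in GLI2 KO cells in DMSO and 2 in WT cells in DMSO. That was a ratio of 7.35 per library total (exact 95% interval 1.69 to 66.6, counting error only). Of the exon bases of TNFRSF13B, 17.3% belong to another gene as well.

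Among the TRAIL receptors, TNFRSF10D was lower in GLI2 KO cells in paclitaxel (log2 -0.37 ± 0.05, edgeR adjusted p = 2.29e-05) and stood at 0.04 ± 0.05 in DMSO (adjusted p = 0.624). TNFRSF10B was higher in paclitaxel by 9.33% (log2 0.13 ± 0.03, adjusted p = 0.000451), and TNFRSF10A was higher in DMSO by 13.7% (log2 0.19 ± 0.04, adjusted p = 0.000226). TNFSF4, TNFSF13, TNFRSF10C, TNFRSF11A, TNFRSF13C and TNFRSF21 passed in neither treatment. For TNFSF4 the 95% interval of the difference was -0.17 to 0.48 log2 in paclitaxel and -0.48 to 0.50 log2 in DMSO, and for TNFRSF11A it was -0.11 to 0.12 and -0.06 to 0.17 log2.

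**Figure D4:**
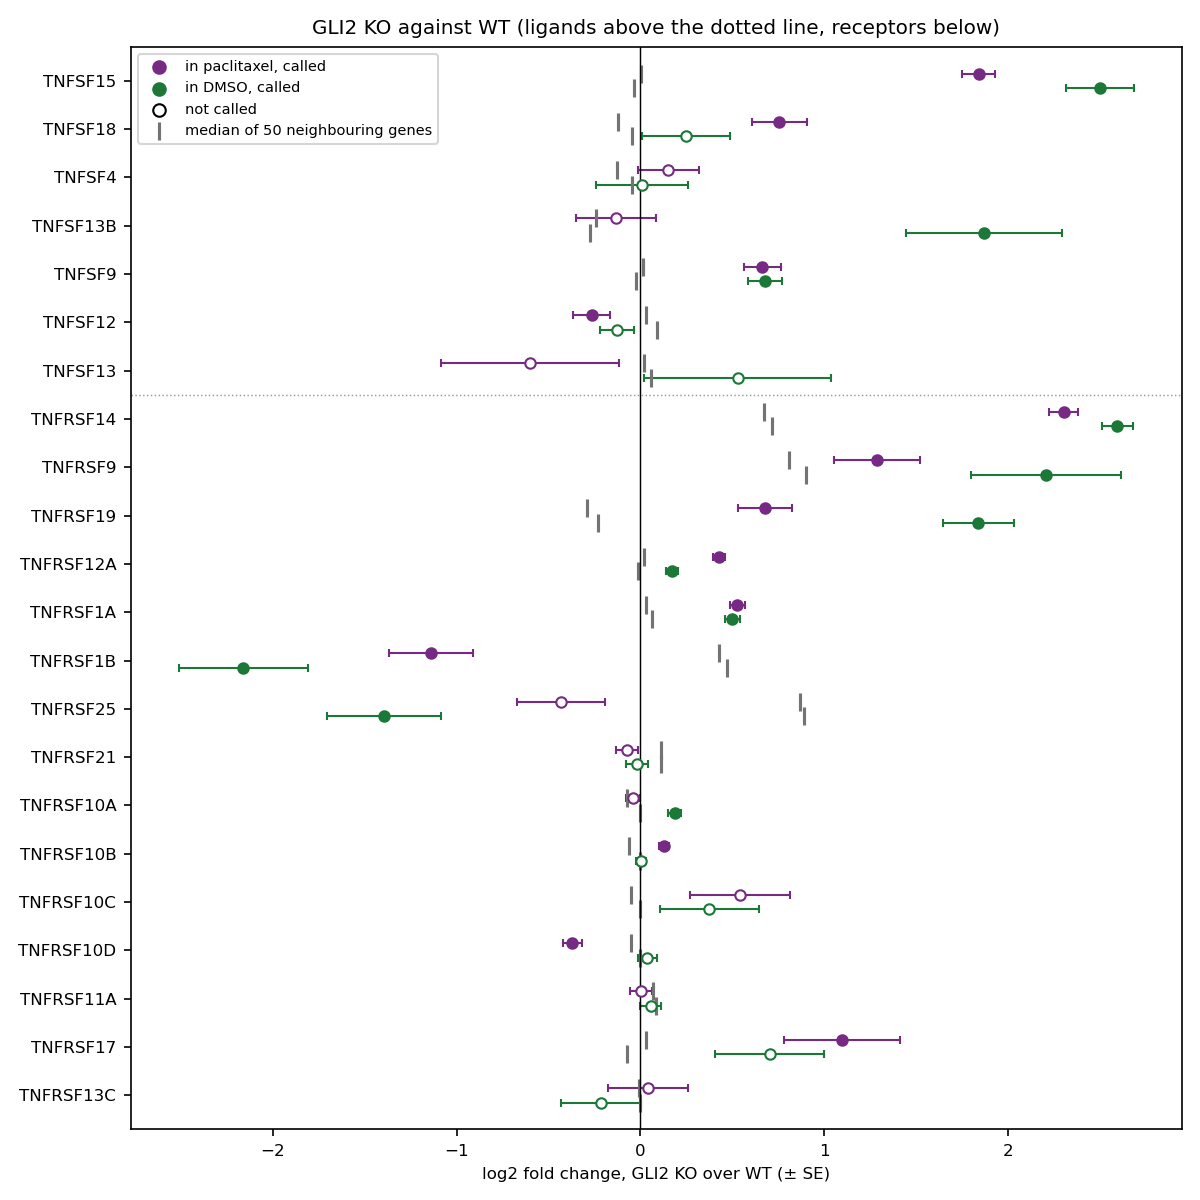
Log2 fold change of GLI2 KO over WT (horizontal axis, points with ± SE) for the 22 tested members in paclitaxel (purple) and DMSO (green), with ligands above the dotted line; filled points passed edgeR's test and grey ticks mark the median of the 50 tested neighbours of each gene. TNFRSF14 and TNFRSF9 lie to the right of neighbours that are themselves at 0.67 to 0.90, and TNFRSF1B and TNFRSF25 to the left of theirs.

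Chromosome position went with part of these differences. TNFRSF14, TNFRSF25, TNFRSF9 and TNFRSF1B lie in that order on the short arm of chromosome 1, in a stretch where most genes were higher in GLI2 KO cells. The 50 tested neighbours of TNFRSF14 had a median log2 fold change of 0.67 in paclitaxel and 0.72 in DMSO, and TNFRSF14 stood above 47 and 48 of them. The neighbours of TNFRSF9 had medians of 0.81 and 0.90, and TNFRSF9 stood above 43 and 48 of them. The neighbours of TNFRSF25 (medians 0.87 and 0.89) and of TNFRSF1B (0.43 and 0.47) were likewise higher, and both receptors stood below all 50 of their neighbours in both treatments. The window of TNFRSF14 also takes in genes before the stretch, which draw its median down. Among its neighbours is the antisense gene TNFRSF14-AS1 (3.26 in paclitaxel and 2.28 in DMSO), which overlaps its exons. The window of TNFRSF1B likewise reaches genes on its far side that were mostly less raised. These windows overlap one another. How much of the receptors' difference is shared with the stretch was not tested. Neighbours of TNFSF15 had medians of 0.00 and -0.04, with TNFSF15 above all 50, and neighbours of TNFRSF19 had -0.29 and -0.23, with TNFRSF19 above 49 and 50 of them.

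**Figure D5:**
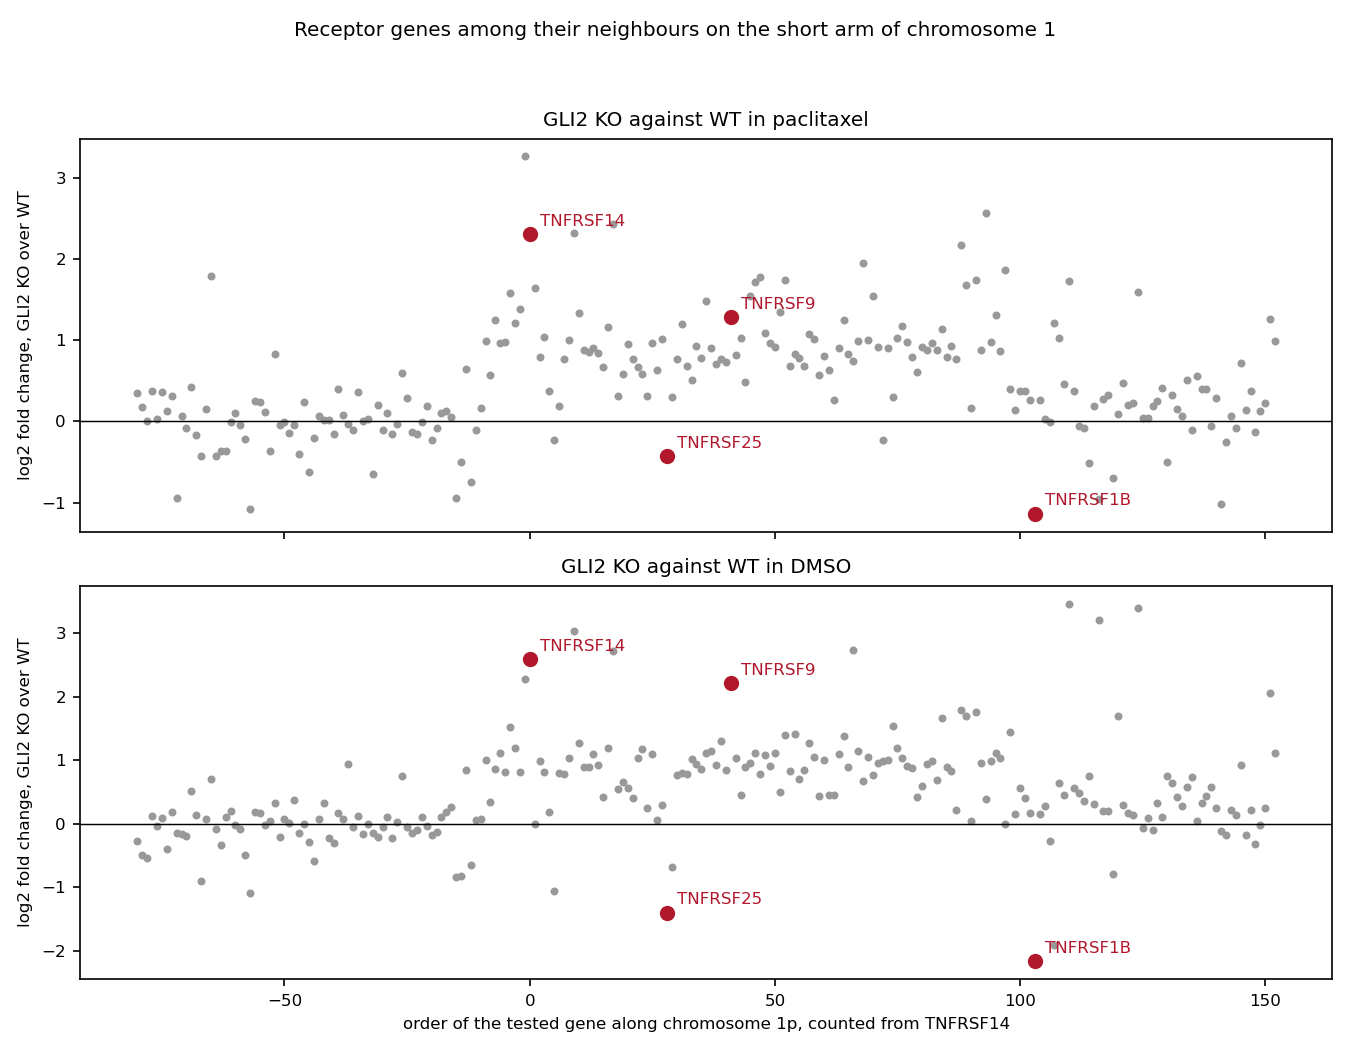
Log2 fold change of GLI2 KO over WT (vertical axis) in paclitaxel (top) and DMSO (bottom) for tested genes along the short arm of chromosome 1, in gene order counted from TNFRSF14 (horizontal axis); receptors are in red and other genes in grey. Most genes from TNFRSF14 to beyond TNFRSF9 lie above 0, while TNFRSF25 and TNFRSF1B lie below 0.

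The third question was whether the paclitaxel effect itself differed between genotypes. In the test of that difference, as GLI2 KO minus WT, 2 of 22 members were higher and 5 lower, against 6.56% and 6.93% of all genes tested (13.5% in either direction). TNFSF13B differed most, at log2 -2.00 ± 0.48 (edgeR adjusted p = 0.00654), followed by TNFRSF19 at -1.16 ± 0.25 (adjusted p = 0.00263). Both stood higher in GLI2 KO cells than in WT cells in DMSO, by log2 1.87 and 1.84, and the gap in paclitaxel was -0.13 and 0.68. TNFRSF10D differed by log2 -0.41 ± 0.07 (adjusted p = 0.00201), TNFRSF10A by -0.22 ± 0.05 (adjusted p = 0.00561) and TNFRSF12A by 0.25 ± 0.04 (adjusted p = 0.000440). TNFSF15 (log2 -0.66 ± 0.22, adjusted p = 0.0484) and TNFRSF10B (0.13 ± 0.04, adjusted p = 0.0332) passed narrowly, and each was lost under 12 alternatives. TNFRSF1B at log2 1.02 ± 0.43 (95% interval 0.17 to 1.87, adjusted p = 0.129), TNFRSF25 at 0.96 ± 0.40 (0.19 to 1.74, adjusted p = 0.115) and TNFRSF9 at -0.92 ± 0.49 (-1.88 to 0.03, adjusted p = 0.236) did not pass. TNFSF18 at 0.51 ± 0.28 did not pass either (adjusted p = 0.270), but did without WT DMSO replicate 1 (log2 0.81, adjusted p = 0.0387).

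Lists of related genes are given beside the same shares of all genes and were not tested as lists. Of 11 superfamily genes under other symbols in the table (15 listed), 6 rose and 3 fell with paclitaxel in GLI2 KO cells, against 33.0% and 32.2% of all genes, and 7 rose and 3 fell in WT cells, against 34.6% and 32.1%. Their median log2 fold changes were 0.98 and 1.11, beside 0.02 and 0.03 for all genes. TNF, LTA, LTB, CD70 and NGFR held 1 to 16 counts summed over a DMSO group. They passed the filter on low counts only through paclitaxel samples, so the filter itself favoured a rise in them and in the list's median. All listed genes that rose stood below 1 CPM in every group except FAS. LTA (lymphotoxin alpha), a soluble ligand of TNFRSF1A and TNFRSF1B, averaged 0.739 ± 0.0978 CPM in GLI2 KO cells in paclitaxel against 0.0311 ± 0.0125 CPM in DMSO, and 0.443 ± 0.0867 CPM in WT cells in paclitaxel against 0.0370 ± 0.0249 CPM in DMSO (SD, n = 3 each). Its log2 fold changes were 4.51 ± 0.37 and 3.55 ± 0.39 (edgeR adjusted p = 1.23e-10 and 1.47e-08), and it is named here after its values were seen. The abundant receptors CD40 (log2 -0.51 ± 0.04 and -0.38 ± 0.04), LTBR (-0.12 ± 0.03 and -0.08 ± 0.03) and RELT (-0.21 ± 0.04 and -0.19 ± 0.04) fell in both genotypes, and the death receptor FAS rose in WT cells (0.35 ± 0.07, adjusted p = 3.78e-05), to 8.76 ± 0.411 CPM in paclitaxel against 6.85 ± 0.389 CPM in DMSO. With upper-quartile factors or library totals, 1 gene of the list fell in each genotype. Between genotypes, 2 of the 11 were higher in GLI2 KO cells in paclitaxel and 0 lower (23.4% and 22.2% of all genes), and 3 were higher and 1 lower in DMSO (22.0% and 19.6% of all genes). LTBR was higher in both (log2 0.26 ± 0.03 and 0.31 ± 0.03).

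Of 12 NF-kB subunits, kinases and inhibitors downstream of the receptors, 9 rose and 2 fell with paclitaxel in GLI2 KO cells, and 8 rose and 1 fell in WT cells. All genes gave 33.0% and 32.2% in GLI2 KO cells and 34.6% and 32.1% in WT cells. The list's median log2 fold changes were 0.41 and 0.34, beside 0.02 and 0.03 for all genes. RELB, a subunit of the noncanonical arm, averaged 23.8 ± 1.36 CPM in GLI2 KO cells in paclitaxel against 5.03 ± 1.25 CPM in DMSO, and 12.4 ± 0.793 CPM in WT cells in paclitaxel against 6.67 ± 0.402 CPM in DMSO (SD, n = 3 each). It rose by log2 2.25 ± 0.14 in GLI2 KO cells and 0.89 ± 0.13 in WT cells (edgeR adjusted p = 6.26e-08 and 0.000146), and the difference between genotypes passed (1.36 ± 0.19, adjusted p = 0.00123). The inhibitor NFKBIE (1.27 ± 0.07 and 1.08 ± 0.08), the precursor NFKB2 (0.92 ± 0.06 and 0.61 ± 0.06) and the kinase MAP3K14 (0.78 ± 0.04 and 0.48 ± 0.04) also rose in both genotypes.

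Of the 7 TRAF adaptors, 2 rose and 5 fell in GLI2 KO cells, and 2 rose and 3 fell in WT cells, beside the same shares of all genes (33.0% higher and 32.2% lower in GLI2 KO cells, 34.6% and 32.1% in WT cells). TRAF1, an NF-kB target that binds TNFRSF9 and TNFRSF1B, rose (log2 0.82 ± 0.14 and 0.75 ± 0.14) and TRAF5 fell (-0.51 ± 0.05 in both). Of 21 genes of the receptor-proximal death and survival complexes, 6 rose and 9 fell in GLI2 KO cells, and 5 rose and 12 fell in WT cells. This split turned with library totals, at 12 higher and 3 lower in GLI2 KO cells and 9 higher and 6 lower in WT cells. With the same totals 47.3% of all genes were higher and 17.4% lower in GLI2 KO cells, and 47.1% and 19.5% in WT cells. TNFAIP3 (A20), the deubiquitinase that feeds back on NF-kB, led with 93.9 ± 6.18 CPM in GLI2 KO cells in paclitaxel against 15.1 ± 3.91 CPM in DMSO, and 55.9 ± 1.79 CPM in WT cells in paclitaxel against 10.5 ± 1.04 CPM in DMSO (SD, n = 3 each). Its log2 fold changes were 2.64 ± 0.16 and 2.40 ± 0.17 (edgeR adjusted p = 7.08e-07 and 1.73e-06). BIRC3 (cIAP2), an inhibitor of cell death at TNF receptors, rose by log2 0.86 ± 0.10 and 0.89 ± 0.10, while CFLAR (FLIP), which blocks caspase-8, rose by 0.34 ± 0.04 and 0.26 ± 0.04 and the adaptor FADD fell (-0.33 ± 0.04 and -0.39 ± 0.04). Between genotypes, the TRAF adaptors split 1 higher and 2 lower in paclitaxel and 3 and 2 in DMSO, the complexes 6 and 5 in paclitaxel and 6 and 8 in DMSO, and the NF-kB genes 6 and 1 in paclitaxel and 6 and 3 in DMSO, beside 23.4% and 22.2% of all genes in paclitaxel and 22.0% and 19.6% in DMSO. In the test of the difference, 0, 6 and 4 genes of these lists passed, beside 13.5% of all genes.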

How the data were processed

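RNA was measured in 12 cultured samples, 3 per group by sample title. The labels name QIAzol for extraction and a qScript kit for cDNA. Tools listed by the submitters' processing notes, without roles, are STAR, Trim Galore 0.6.7 and DESeq2 1.36.0, with the build hg38. No source used here names the counter, the gene annotation or the use of strand. The deposited count table holds the authors' raw whole-number counts per gene (lowest row total 20). The deposited normalized signal equals those counts divided by 1 factor per sample (largest relative deviation 5.33e-15) and was not analysed further. The number of sample columns not used was 0.

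Counts were fitted in edgeR 4.0.16 (R 4.3.3) with TMM factors, filterByExpr by group (minimum count 10) and robust quasi-likelihood over all 12 samples, giving 8 residual degrees of freedom and 5 contrasts. P-values are two-sided, adjusted by Benjamini-Hochberg over 21974 genes within a contrast, and called below 0.05. A log2 fold change carries an approximate SE, its size divided by the root of the F statistic. The scripts were tested on simulated data. Names were matched to GENCODE 29 on GRCh38 for 23379 genes (93.3%), which gave positions and exon lengths.

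Called members that averaged 1 CPM or more in some group were named with values per sample, as were scarcer members with a called change of at least 1 log2 unit or a count near 0 in a group, and up to 4 called genes per related list. Members and lists were chosen with earlier results of these data known. Replicates were numbered in accession order, and nothing in the labels says they were separate cultures, so the p-values reflect spread between samples that may be purely technical. Other settings tried were scaling by RLE, by upper quartiles or by library totals, no filter, a minimum count of 50, DESeq2 1.42.0, limma-voom 3.58.1, only the 2 groups compared, and leaving out each sample.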

Additional observations from a re-analysis of the deposited data

Results flagged for a closer look

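An interaction term (GLI2 KO minus WT, log2, edgeR) tested whether paclitaxel acted differently in the genotypes. It passed in 7 of 22 members, against 13.5% of all genes tested. TNFSF13B had -2.00, with a WT baseline of 2, 6 and 4 counts in DMSO, and the value ranged from -2.48 to -1.60 over the alternatives (largest adjusted p = 0.0381). TNFRSF19 had -1.16 and ranged from -1.29 to -1.01 (largest adjusted p = 0.0125). TNFRSF10D had -0.41, TNFRSF10A had -0.22 and TNFRSF12A had 0.25, and these passed under every alternative that gave a value (largest adjusted p = 0.0127, 0.0196 and 0.00218). TNFSF15 had -0.66 and TNFRSF10B had 0.13, and neither call held under 12 of the alternatives.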

How the results depend on the processing

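Of 62 member results that passed, 53 did so in the same direction under all 8 alternatives and all 12 omissions of a sample that gave a value. The other 9 concern TNFRSF10A, TNFRSF10B, TNFRSF11A, TNFRSF17, TNFRSF25, TNFSF12 and TNFSF15. TNFRSF10B with paclitaxel in WT cells reversed with upper-quartile factors (0.049) and library totals (0.073). The cause was not tested. Of 48 results that did not pass, 16 changed sign without passing in either fit (largest log2 0.25) and 7 passed under an alternative. With library totals, members lower with paclitaxel numbered 3 in GLI2 KO and 3 in WT cells, against 17.4% and 19.5% of all genes. With upper-quartile factors, they numbered 3 in WT cells, against 21.5% of all genes. A minimum count of 50, which tests fewer genes, left 1 member lower in GLI2 KO cells in DMSO, against 26.2% of genes. Members with a higher paclitaxel effect in GLI2 KO cells numbered 1 with upper-quartile factors, 1 with no filter, and 1 to 2 when a sample was left out. All genes gave 5.91%, 5.21% and 4.53% to 7.08% in those settings.

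With upper-quartile factors, paclitaxel calls were 4 lower for the death and survival complexes in GLI2 KO cells, 9 higher and 7 lower in WT cells, 1 lower in each genotype for other-symbol genes, 3 lower for TRAF adaptors in GLI2 KO cells, and 0 lower in each genotype for NF-kB genes. With library totals the complexes had 12 higher and 3 lower in GLI2 KO cells and 9 higher and 6 lower in WT cells, other-symbol genes 1 lower in each genotype, TRAF adaptors 2 lower in GLI2 KO cells, and NF-kB genes 0 lower in each genotype. Of all genes, upper-quartile factors gave 42.4% higher and 21.8% lower in GLI2 KO cells and 45.1% and 21.5% in WT cells. Library totals gave 47.3% and 17.4% in GLI2 KO cells and 47.1% and 19.5% in WT cells. NF-kB genes lower in GLI2 KO cells in paclitaxel became 2, and those with a lower paclitaxel effect 1, with upper-quartile factors. All genes gave 26.0% and 7.77% there. Other-symbol genes with a lower effect became 0 with library totals, against 5.68% of all genes. The decoy share difference in DMSO ranged from -1.02 to 0.242 points when a sample was left out, with the positive value without WT DMSO replicate 2. Depth limits members under about 10 counts per sample. No paired fit was run. The titles carry library numbers, in which all WT samples come before all GLI2 KO samples, so number order and genotype cannot be told apart. Some neighbouring numbers share a genotype and differ in treatment, while others share both. No label gives shared replicate numbers or says that neighbours are pairs.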
